A study of Mus musculus with 53 samples.

Results

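Bmp8b and 9 genes of its signalling pathway were followed across 53 mouse livers: the ligands Bmp2, Bmp4, Bmp5 and Bmp6, the receptors Bmpr1a, Bmpr2, Acvr1 and Acvrl1, and Bmper, a secreted protein that binds BMPs. The 10 genes were chosen by symbol, out of 55262 genes listed in any of 3 count tables. Messenger RNA was sequenced from whole, snap-frozen liver of male C57BL/6J mice, 1 library per liver. In the diet experiment, mice that were 9 weeks old were given a Western diet (TD88137) or a low-fat control diet (TD08485) for 32 weeks. The low-fat group held 9 wild-type livers, and the Western groups held 7 wild-type livers and 7 whose label names a Bmp8b knockout. In the toxin experiment, mice aged 16 weeks received an intraperitoneal injection of 2 ul per g of olive oil, or of carbon tetrachloride (CCl4, a liver toxin that hepatocytes activate) mixed 1:1 by volume with olive oil, and livers were taken 3 days later. Olive oil was given to 6 wild-type mice, and CCl4 to 4 wild-type mice and 6 labelled knockout. In the surgery experiment, mice aged 16 weeks had part of the liver removed. The resected piece (day 0) was sequenced for 5 wild-type mice, and liver 3 days after surgery for 5 wild-type and 4 labelled knockout mice. No labelled knockout liver was sampled without a challenge, and the labels do not describe the knockout allele, so these groups are called labelled knockout throughout. The labels say that wild-type mice were littermates, without saying of which litters.

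Bone morphogenetic proteins (BMPs) are secreted ligands that bring type I receptors (Bmpr1a, Acvr1, Acvrl1) and type II receptors (Bmpr2) together at the cell surface. The active receptors phosphorylate SMAD proteins, which enter the nucleus with Smad4 and switch on genes such as Id1, Smad6 and Smad7. In liver, Bmp2 and Bmp6 come mainly from sinusoidal endothelial cells and instruct hepatocytes to make hepcidin (Hamp), the hormone that limits iron uptake, while Acvrl1 is chiefly an endothelial receptor for the circulating ligand encoded by Gdf2. Bmper can either block or promote BMP signalling. Bmp8b is best known from brown fat and germ cells, and its mRNA is scarce in resting liver.

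The stretch just upstream of the gene start is printed below for Bmp8b, Bmper and Bmp5, because these members were called higher on Western diet and have an entry in the RefSeq promoter table used (build GRCm38.p6), which 8 of the 10 members matched. Each line gives the 250 bases before the start, 5′ to 3′, and the capitals mark a GC box (GGGCGG, or its reverse complement).
Bmp8b, chr4:123104911-123105160, + strand: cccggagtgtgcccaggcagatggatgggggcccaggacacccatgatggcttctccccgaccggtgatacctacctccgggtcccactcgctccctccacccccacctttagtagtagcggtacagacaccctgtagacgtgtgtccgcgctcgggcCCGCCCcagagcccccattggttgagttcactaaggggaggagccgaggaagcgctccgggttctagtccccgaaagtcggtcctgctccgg
Bmper, chr9:23222826-23223075, + strand: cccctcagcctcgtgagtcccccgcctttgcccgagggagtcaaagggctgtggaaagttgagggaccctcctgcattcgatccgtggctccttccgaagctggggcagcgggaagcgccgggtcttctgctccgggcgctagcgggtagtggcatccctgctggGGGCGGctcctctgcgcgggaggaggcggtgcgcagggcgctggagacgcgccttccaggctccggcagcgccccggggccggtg
Bmp5, chr9:75775115-75775364, + strand: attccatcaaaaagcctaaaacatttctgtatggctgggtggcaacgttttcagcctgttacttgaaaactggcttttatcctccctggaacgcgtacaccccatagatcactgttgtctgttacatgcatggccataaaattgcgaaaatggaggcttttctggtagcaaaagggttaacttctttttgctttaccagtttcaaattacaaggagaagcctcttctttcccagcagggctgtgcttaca
The Bmp8b stretch holds 65.2% G and C with 17 CpG, the Bmper stretch 71.6% with 24 CpG and the Bmp5 stretch 42.8% with 4 CpG, against a median of 52.4% over 32851 promoters. A search of both strands for GGGCGG found 1 match in Bmp8b, on the minus strand from -92 to -87 relative to the start, and 1 in Bmper, on the plus strand from -85 to -80, and none in Bmp5, while 32.7% of all promoters of that length held it. No match to GGCGCC, a BMP-responsive SMAD element held by 9.6% of promoters, was found in the 3 stretches. Nor was the AP-1 site TGANTCA, held by 6.7% of promoters. The TATA box, TATAAA, which 12.4% of promoters hold, was not found in them either. A match describes letters only.

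Libraries held 8963187 to 15196537 counts in the diet experiment, 2661699 to 6364414 in the toxin experiment and 2450358 to 6914274 in the surgery experiment. Levels are CPM on library sizes that were normalized within an experiment (a gene’s counts relative to all counts of its library), and a count of 0 in a single library allows up to 3 counts, or 0.1786 to 0.3589 CPM in the diet libraries, 0.3986 to 1.053 CPM in the toxin libraries and 0.446 to 1.181 CPM in the surgery libraries, for counting error alone. Hepatocyte markers (8 genes) summed to 57406 to 161494 CPM in every liver, so all libraries carry the labelled tissue. The surgery table was counted on another gene annotation than the other tables. In surgery the day 0 and day 3 livers carried different i5 sequencing indexes, so the index and the day cannot be told apart for any gene. Livers 34 (wild-type) and 35 (labelled knockout) of the CCl4 groups stood apart from the other 8 CCl4 livers. Contrasts of members with olive oil that rest on them are given with and without them. In bulk tissue, fewer cells of a type and less RNA per cell cannot be told apart, and p-values judge a difference between groups against the spread between livers. Wild-type surgery livers share mouse numbers between day 0 and day 3 and were treated as unpaired, as described at the end.

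Per kilobase of exon, the scale on which genes can be compared, Bmpr1a had the highest level of the 10 members in 8 of the 9 groups. On low-fat diet the order of levels was Bmpr1a (5.60 ± 0.479 CPM per kb, SD, n = 9), Acvr1 (3.54 ± 0.324), Bmp2 (3.23 ± 0.477), Bmp5 (2.66 ± 0.320), Bmp4 (0.912 ± 0.261), Bmp6 (0.871 ± 0.145), Acvrl1 (0.551 ± 0.115), Bmpr2 (0.122 ± 0.0316), Bmper (0.120 ± 0.0734) and Bmp8b (0.0330 ± 0.0335). The ranges of the mean ± 1 SD overlapped for Acvr1 with Bmp2, Bmp2 with Bmp5, Bmp4 with Bmp6, Bmpr2 with Bmper, and Bmper with Bmp8b. Bmp8b was thus last among the members on low-fat diet, below every other ligand by more than the spread between livers. It was also last after olive oil, and at day 0 of surgery it ranked 9, above Bmper (0.0539 against 0.0508 CPM per kb). The exception to the place of Bmpr1a was the wild-type CCl4 group, where Bmper stood first at 9.62 ± 16.4 CPM per kb through liver 34. Bmpr2 averaged 2.20 to 3.35 CPM in the 6 diet and toxin groups and 22.3 to 30.5 CPM in the 3 surgery groups: day 0 was 10.4 times the olive oil level and 13.9 times the low-fat level. Of 11182 genes with at least 1 CPM in each wild-type control group, 7 were at least 8-fold higher at day 0 than in both others, and Bmpr2 was among them. For Bmpr2 the experiment and the annotation cannot be told apart, and its level is compared only within an experiment. Per kilobase it ranked 8 on low-fat diet and 4 at day 0, so its place among the members carries the same limit. For the other members day 0 was 0.462 to 1.46 times the olive oil level where olive oil was above 0.

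Bmp8b (ENSMUSG00000002384, chromosome 4 from 123105165 to 123132099, + strand, GRCm38) was low everywhere, with 343 counts in all 53 libraries, and highest in challenged livers. On low-fat diet its level per liver ran from 0 to 0.312 CPM, with a median of 0.156, and 4 of 9 libraries held no count. In wild-type livers on Western diet it ran from 0.520 to 1.79 CPM, with a median of 1.24. In labelled knockout livers on Western diet it ran from 0.718 to 2.23 CPM, with a median of 1.69. Every Western diet liver was above every low-fat liver, and the 2 Western groups overlapped. Bmp8b rose 8.35-fold in group means in wild-type livers, from 0.128 ± 0.130 (n = 9) to 1.07 ± 0.490 CPM (n = 7), and the edgeR log2 fold change was 2.99 ± 0.47 (SE, adjusted p = 3.804e-05). In the labelled knockout livers the mean was 1.53 ± 0.522 CPM (n = 7), 11.9 times the low-fat mean (edgeR log2 fold change 3.49, adjusted p = 2.048e-05). On log2(CPM + 0.5), the exact permutation test (two-sided) gave p = 8.741e-05 for both diet contrasts, the smallest that 7 against 9 livers allow, and 3.934e-04 after adjustment over the 9 Bmp8b comparisons.

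No Bmp8b count was found in the 6 olive oil livers, and over that group together this allows up to 0.118 CPM. After CCl4, wild-type liver 5 had 1.33 CPM (10 counts), liver 7 had 0.523 CPM (3 counts), and livers 4 and 34 had 0. The mean was 0.463 ± 0.628 CPM (n = 4), at least 3.94-fold higher than olive oil at that limit, and the difference did not pass the test (exact permutation p = 0.1333, adjusted 0.1514). With no filter on low counts, edgeR gave an adjusted p of 0.0677 for this difference. Without CCl4 livers 34 and 35, a setting chosen after seeing the data, edgeR with no filter gave an adjusted p of 0.0335. All 6 labelled knockout livers after CCl4 held at least 1 count, from 0.266 to 2.61 CPM with a median of 0.910, so they did not overlap the olive oil livers. Their mean of 1.18 ± 1.04 CPM was at least 10.03-fold higher than that limit, and the rise passed the test (exact permutation p = 0.002165, adjusted 0.006494). It also passed without liver 35, with a mean log2 difference of 1.40 against 1.498 with it. Of those livers, 3 rested on a single Bmp8b count each. For the labelled knockout rise, edgeR with no filter gave an adjusted p of 0.03025 with all livers and 0.0125 without livers 34 and 35.

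At day 0 of the surgery Bmp8b was 0.743 CPM (5 counts) in liver 12, 0.303 CPM in liver 14 and 0 in livers 13, 15 and 16. At day 3 the wild-type livers had 0.512 (12), 0.887 (13), 0.356 (14), 1.31 (15) and 1.16 CPM (16), each from 1 to 5 counts. At day 3 the labelled knockout livers had 1.08 (17), 2.62 (18), 2.36 (19) and 2.39 CPM (20), from 4 to 9 counts. The wild-type groups overlapped, the labelled knockout livers all lay above day 0, and liver 17 lay inside the wild-type day 3 range. The wild-type mean went from 0.209 ± 0.326 to 0.844 ± 0.407 CPM (n = 5 each), 4.03-fold, which missed the threshold (exact permutation p = 0.03175, adjusted 0.05714). In the labelled knockout group the mean of 2.12 ± 0.700 CPM (n = 4) was 10.1 times day 0, a rise that passed the test (exact permutation p = 0.01587, adjusted 0.03571). Without any one of the day 0 livers that rise had an adjusted p of 0.05714. The groups still did not overlap, and the unadjusted exact p was then the smallest that so few livers allow. The rise could therefore not pass after adjustment over the 9 comparisons. The filter on low counts kept Bmp8b out of the edgeR fit in the toxin and surgery experiments. With no filter, edgeR gave an adjusted p of 0.333 for wild-type day 3 against day 0 and 0.0455 for labelled knockout day 3 against day 0.

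**Figure D1:**
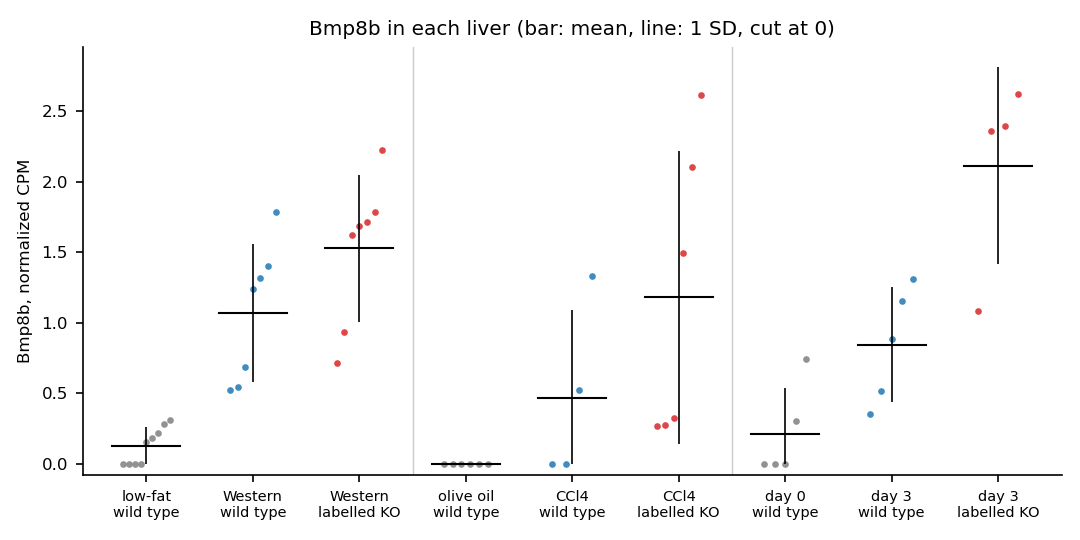
Bmp8b level in each of the 53 livers (CPM, y axis) in the 9 groups (x axis); points are livers, bars are group means and lines are 1 SD. All low-fat and olive oil livers lie at or below 0.312 CPM, and the highest group mean is that of the labelled knockout livers at day 3, 2.12 CPM.

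Bmp8b mRNA was not lower in any labelled knockout group than in the challenged wild-type group beside it. The labelled knockout mean was 1.43 times the wild-type mean on Western diet, 2.55 times after CCl4 and 2.51 times at day 3 of surgery. None of these differences passed the exact permutation test: the p values were 0.1346, 0.2143 and 0.03968, and 0.1514, 0.2143 and 0.05952 after adjustment. In the diet experiment the edgeR interval of the fold (95%) ran from 0.844 to 2.37, so a fall below 0.844 times the wild-type level lies outside it. The counts are sums over the whole gene, the deleted part is not given in the sources used here, and these totals therefore do not check the label. Without liver 17, the lowest labelled knockout liver at day 3, the adjusted p of the surgery difference was 0.03214. Bmp8b shares 133 exonic bases with Ppie, a spliceosome-associated isomerase gene on the opposite strand, and 339 with Gm17244. Ppie lay between 6.365 and 21.8 CPM in all livers, and its group mean was 12.0 CPM on low-fat diet and 10.97 CPM in wild-type livers on Western diet, while Bmp8b rose. Whether the counting used strand is not given in the sources used here, so reads from the shared bases cannot be assigned. Bmp8a, the neighbouring paralog of Bmp8b on chromosome 4 (123312645 to 123343252), had 1 count in all 53 libraries.

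Ordered by group mean, Bmp8b was highest in labelled knockout livers at day 3 of surgery, then in the labelled knockout livers on Western diet and after CCl4, then in wild-type livers on Western diet, at day 3 of surgery and after CCl4, and lowest at day 0, on low-fat diet and after olive oil. The range of the mean ± 1 SD of each group overlapped that of the next in this order, and levels across experiments were normalized separately.

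Among the other ligands, only Bmp5 passed the test in a challenge contrast. Of the 10 members tested in wild-type livers on Western diet against low-fat diet, 4 were called higher (Bmp8b, Bmper, Acvrl1 and Bmp5) and none lower, where 37.4% of all 13005 genes tested were called, 20.4% higher. The median log2 fold change was 0.04 over the members and -0.02 over all genes tested. Bmp5, a ligand close to Bmp6 in sequence, ran from 8.94 to 12.8 CPM on low-fat diet (median 10.6), from 10.6 to 19.1 in wild-type livers on Western diet (median 13.0) and from 10.9 to 17.4 in the labelled knockout livers (median 13.8). The groups overlapped, and the rise was 1.25-fold in wild-type livers (log2 fold change 0.33 ± 0.11, adjusted p = 0.0234) and 1.31-fold in labelled knockout livers (0.39, adjusted p = 0.0127). Wild-type liver 23 had the highest Bmp5 level, and without it the log2 fold change was 0.22 (adjusted p = 0.0901). Within a single i5 sequencing index, with fewer livers per group, the wild-type rise was not called. Its log2 fold changes were 0.35 in D501 (adjusted p = 0.0543) and 0.29 in D502 (adjusted p = 0.316). The labelled knockout rise was called in D501 and not in D502 (0.30, adjusted p = 0.430). Gm26903, an antisense gene, shares 1878 exonic bases with Bmp5.

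Bmp6, the main inducer of hepcidin, was 2.496 to 4.37 CPM on low-fat diet (median 3.31), 1.70 to 2.97 CPM in wild-type livers on Western diet (median 2.60) and 1.19 to 3.48 CPM in labelled knockout livers (median 2.63). These ranges overlapped, and the log2 fold changes of -0.45 (adjusted p = 0.0624) and -0.47 (adjusted p = 0.0714) missed the threshold. Some alternatives called them: limma voom with quality weights gave -0.44 (adjusted p = 0.0474) and -0.62 (adjusted p = 0.0233). Leaving out low-fat liver 18 called the wild-type difference, and leaving out labelled knockout liver 2 or 15 the labelled knockout difference. After olive oil Bmp6 ran from 1.43 to 5.52 CPM. After CCl4 livers 34 and 35 had 4.34 and 4.49 CPM and the other 8 livers 0.266 to 2.11 CPM. Against olive oil neither CCl4 group passed the test (log2 fold changes -0.88, adjusted p = 0.407, and -0.87, adjusted p = 0.444). Without livers 34 and 35 the wild-type difference was -1.99 (adjusted p = 0.0290) and the labelled knockout difference -1.56 (adjusted p = 0.0565). With no filter on low counts as well, these were -1.98 (adjusted p = 0.0521) and -1.55 (adjusted p = 0.0970). Bmp6 shares 224 exonic bases with Txndc5 on the opposite strand, an abundant gene at 120 and 113 CPM in livers 34 and 35 and 229 to 355 CPM in the other CCl4 livers.

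At day 0 of surgery Bmp6 was 2.97, 7.32, 3.94, 5.23 and 1.56 CPM (livers 12 to 16), and at day 3 it was 1.54, 2.96, 1.78, 3.67 and 2.31 CPM in wild-type and 4.05, 0.750, 3.15 and 2.93 CPM in labelled knockout livers (17 to 20). The groups overlapped, and neither day 3 group passed the test (log2 fold changes -0.76 and -0.60, adjusted p = 0.260 and 0.469). Bmp2, the other endothelial ligand, had group means of 10.4 to 11.5 CPM in the diet experiment, 7.82 to 9.07 in the toxin experiment and 7.98 to 9.28 in the surgery experiment, and no contrast passed the test. The highest Bmp2 group mean was 1.11, 1.16 and 1.16 times the lowest within the 3 experiments. Bmp4, which mesenchymal cells make, had group means of 1.80 to 2.38, 1.98 to 2.15 and 3.00 to 4.23 CPM, and no contrast passed the test. In the surgery experiment Bmp4 in the wild-type day 3 livers was 4.61, 5.91, 0.712, 6.81 and 3.08 CPM.

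Acvrl1 was the only member receptor called in a challenge contrast, on Western diet. On low-fat diet it ran from 1.46 to 2.94 CPM (median 2.29), in wild-type livers on Western diet from 3.48 to 8.87 CPM (median 6.55) and in labelled knockout livers from 1.32 to 7.83 CPM (median 4.61). The wild-type groups did not overlap, while labelled knockout liver 1, at 1.32 CPM, was below every low-fat liver. Acvrl1 rose 2.57-fold in wild-type livers (log2 fold change 1.36 ± 0.24, adjusted p = 1.165e-04) and 1.91-fold in labelled knockout livers (0.94 ± 0.24, adjusted p = 0.00698). Within each i5 sequencing index alone, with fewer livers per group, Acvrl1 was not called in labelled knockout livers. The log2 fold changes there were 0.76 in D501 (adjusted p = 0.139) and 1.25 in D502 (adjusted p = 0.0521). In wild-type livers Acvrl1 was called within both indexes. Beside the wild-type rise, 5 of 10 sinusoidal endothelial markers were called higher, where 20.4% of all genes were, and none lower, and none was at 0. Their summed level was 284 to 389 CPM on low-fat diet, 363 to 427 in wild-type and 305 to 445 CPM in labelled knockout livers on Western diet. The part of the endothelial markers in the Acvrl1 result was not tested.

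In the toxin experiment Acvrl1 had group means of 2.45 ± 1.27 (olive oil), 2.82 ± 0.429 (wild-type, CCl4) and 3.02 ± 1.45 CPM (labelled knockout, CCl4), and no contrast passed the test. In surgery it was 4.31, 4.78, 0.909, 1.57 and 1.56 CPM at day 0 (livers 12 to 16), 5.13, 2.07, 3.92, 4.19 and 9.63 CPM in wild-type livers at day 3, and 2.43, 3.00, 2.36 and 2.93 CPM in labelled knockout livers (17 to 20). The groups overlapped, and the log2 fold changes were 0.83 (adjusted p = 0.224) for wild-type day 3 against day 0 and -0.87 (adjusted p = 0.641) between the genotypes at day 3.

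Bmpr1a, the main BMP type I receptor of hepatocytes, was the steadiest member on Western diet. Its group means in the diet experiment were 35.6 ± 3.04, 35.3 ± 3.52 and 35.2 ± 2.89 CPM, and the wild-type Western to low-fat fold had a 95% interval of 0.901 to 1.09. After CCl4 it was 36.2 ± 6.61 in wild-type and 39.4 ± 8.601 CPM in labelled knockout livers against 30.6 ± 5.41 CPM after olive oil (log2 fold changes 0.25 and 0.37, adjusted p = 0.367 and 0.188). At day 0 of surgery it was 32.1, 41.4, 24.6, 34.2 and 24.2 CPM (livers 12 to 16) and at day 3 it was 40.8, 34.6, 40.9, 38.5 and 47.0 CPM in wild-type livers and 39.1, 34.5, 46.9 and 41.2 CPM in labelled knockout livers. The day 0 range was extended upwards by liver 13, and the log2 fold changes of 0.36 in both day 3 groups missed the threshold (adjusted p = 0.0948 and 0.141). Without liver 13 both passed. All day 3 livers were read with index D507 and the day 0 livers with D505 or D506, so the index and the day of surgery cannot be told apart.

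Acvr1, a type I receptor that hepcidin induction also uses, had group means of 15.1 to 17.1 CPM in the diet experiment, 15.1 to 16.2 in the toxin experiment and 18.4 to 23.2 CPM in the surgery experiment, and no contrast passed the test. Bmpr2, the type II receptor, had group means of 2.20 to 2.34 CPM in the diet and 2.66 to 3.35 CPM in the toxin experiment. In surgery Bmpr2 was 23.9, 24.8, 35.2, 32.9 and 35.9 CPM at day 0 (livers 12 to 16), 29.2, 21.3, 33.5, 19.1 and 31.2 CPM in wild-type and 25.6, 19.9, 23.6 and 20.2 CPM in labelled knockout livers at day 3. The groups overlapped, and labelled knockout day 3 against day 0 gave a log2 fold change of -0.44 (adjusted p = 0.139 by edgeR).

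**Figure D2:**
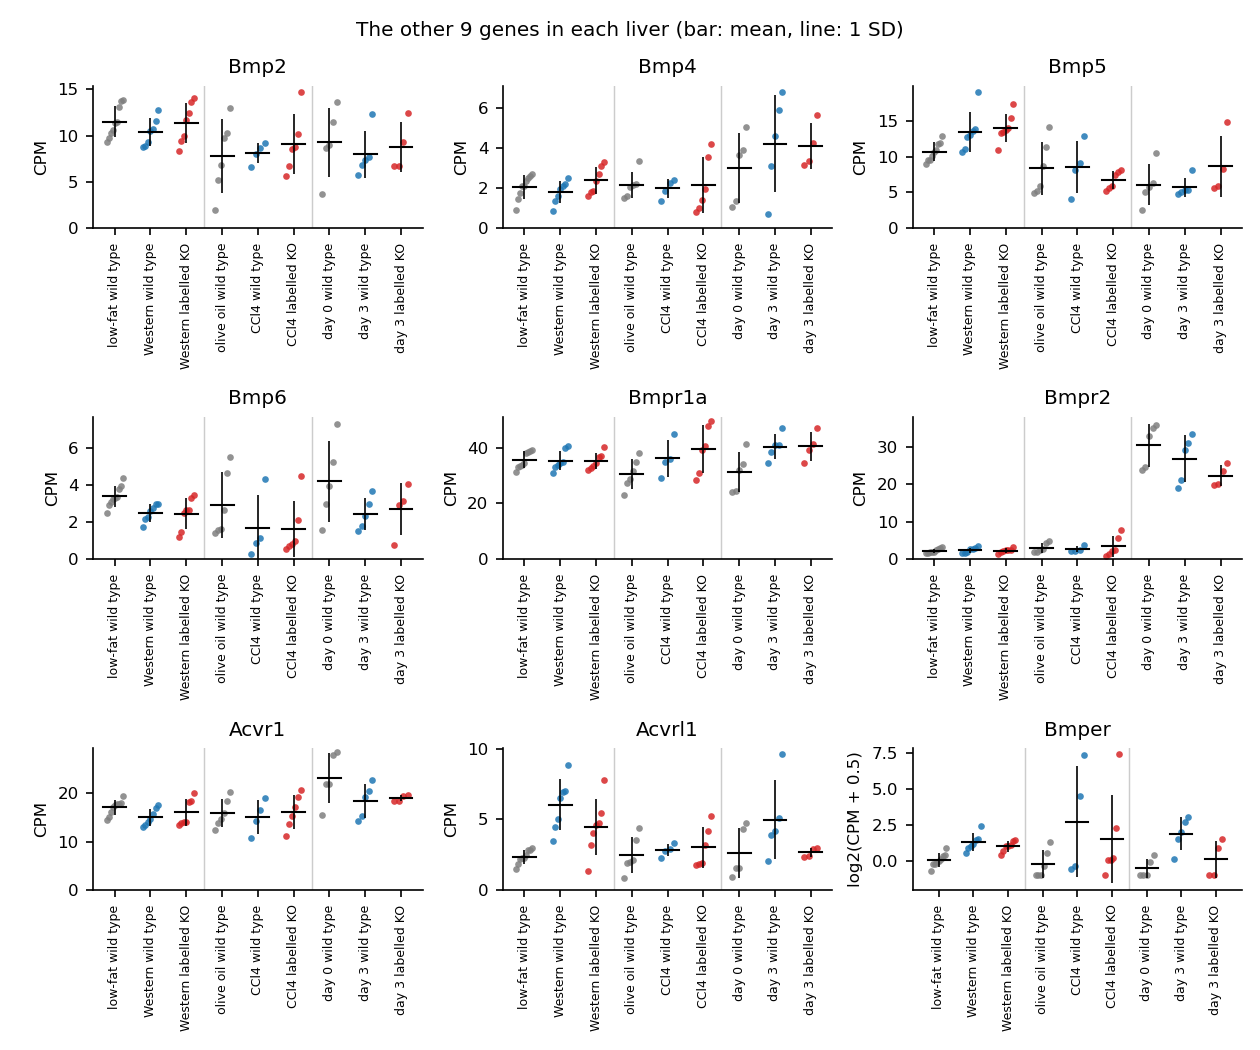
Levels of the members other than Bmp8b in each liver (points), with group means (bars) and 1 SD (lines). Levels are in CPM on the y axis except for Bmper, which is on log2(CPM + 0.5), and groups are on the x axis. Acvrl1 on Western diet and the 2 Bmper values of about 164 CPM after CCl4 stand out, while Bmpr1a and Bmp2 differ little between groups.

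Bmper spanned the widest range of levels among the members. On low-fat diet it ran from 0.104 to 1.33 CPM (median 0.460), in wild-type livers on Western diet from 0.935 to 4.89 CPM (median 1.78) and in labelled knockout livers from 0.795 to 2.18 CPM (median 1.504). The groups overlapped. Bmper rose 3.55-fold in wild-type livers (log2 fold change 1.83 ± 0.35, adjusted p = 2.754e-04) and 2.56-fold in labelled knockout livers (1.36, adjusted p = 0.00846). Beside this, 7 of 10 stellate cell markers and 7 of 8 myofibroblast markers were called higher in wild-type livers, where 20.4% of all genes were. None of these markers was at 0, and the myofibroblast markers summed to 39.7 to 106 CPM on low-fat diet, 150 to 406 CPM in wild-type and 54.6 to 380 CPM in labelled knockout livers. Their part in the Bmper result was not tested. Within each i5 index alone, with fewer livers per group, Bmper was called in wild-type and not in labelled knockout livers. The labelled knockout log2 fold changes were 1.52 in D501 (adjusted p = 0.106) and 1.42 in D502 (adjusted p = 0.0897).

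In the surgery experiment Bmper was 0.446, 0, 0, 0 and 0.781 CPM at day 0 (livers 12 to 16). At day 3 the wild-type livers had 7.69, 0.591, 3.56, 6.02 and 2.31 CPM, and the labelled knockout livers 0, 0, 2.36 and 1.33 CPM (17 to 20). In the wild-type day 3 group, 4 of the 5 livers were above every day 0 liver, and 2 of 4 labelled knockout livers held no count. The filter on low counts kept Bmper out of the surgery fit. With no filter, edgeR gave a log2 fold change of 3.87 for wild-type day 3 against day 0 (adjusted p = 8.254e-04), and DESeq2 gave 4.08 (adjusted p = 0.00145). Labelled knockout against wild-type at day 3 gave -2.15 with no filter (unadjusted p = 0.009796, adjusted p = 0.354). Beside the wild-type values at day 3, 6 of 7 myofibroblast and 3 of 10 stellate cell markers tested were called higher and none lower. In that contrast 1088 of all 11026 genes tested were called higher. The myofibroblast markers summed to 44.9 to 111 CPM at day 0, 175 to 568.1 in wild-type and 123 to 571 CPM in labelled knockout livers at day 3. Mesothelial markers, 2 of 2 tested called higher at day 3 in wild-type livers, summed to 0 to 1.17 CPM at day 0, 5.39 to 28.2 in wild-type and 2.16 to 33.9 CPM in labelled knockout livers at day 3, and the part of these 3 marker lists in the Bmper values was not tested.

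After olive oil Bmper ran from 0 to 1.98 CPM, and after CCl4 from 0 to 165. Wild-type liver 34 had 164 CPM, liver 4 had 21.4 CPM, and livers 5 and 7 had 0.266 and 0.1745 CPM. Labelled knockout liver 35 had 164.7 CPM, and livers 2, 8, 9, 12 and 22 had 0.523, 0, 0.647, 0.550 and 4.26 CPM. Livers 34, 4, 35 and 22 lay above every olive oil liver, and the other 6 CCl4 livers lay within the olive oil range. Bmper was the only member called in wild-type livers after CCl4, 1 of 9 tested (log2 fold change 6.19 ± 2.01, adjusted p = 0.0388), where 20.0% of 11663 genes were called, 11.1% higher. Without liver 34 it was 3.45 (adjusted p = 0.271), and limma voom with quality weights gave 0.88 (adjusted p = 0.641). In labelled knockout livers after CCl4 none of 9 tested members was called by edgeR, where 9.3% of genes were. There Bmper had a log2 fold change of 5.503 (adjusted p = 0.0881) with liver 35. With livers 34 and 35 both left out, the filter on low counts kept Bmper out of the fit. With no filter as well, Bmper then had a log2 fold change of 1.01 in labelled knockout livers (adjusted p = 0.626) and of 3.52 in wild-type livers (adjusted p = 0.0261), whose highest remaining value was that of liver 4. With all livers, 2 members were under an unadjusted p of 0.05 in the labelled knockout contrast, Bmper and Bmpr1a, and DESeq2 called 2 members.

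Livers 34 and 35 differed from the other 8 CCl4 livers in other lists as well. Cell division genes (6 genes) summed to 20.5 and 23.7 CPM against 141 to 614 CPM in the other 8 and 3.34 to 13.3 CPM after olive oil. Recruited macrophage markers summed to 221 and 275 CPM against 95.5 to 155, sinusoidal endothelial markers to 351 and 467 CPM against 208 to 276, and stellate cell markers to 229 and 273 CPM against 347 to 529. Both were read with index D505, as were 3 of the olive oil livers, while the other CCl4 livers carried D503 or D504. No olive oil liver carried D503. The part of the index and of the cell makeup in the Bmper and Bmp6 values of these livers was not tested.

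**Figure D3:**
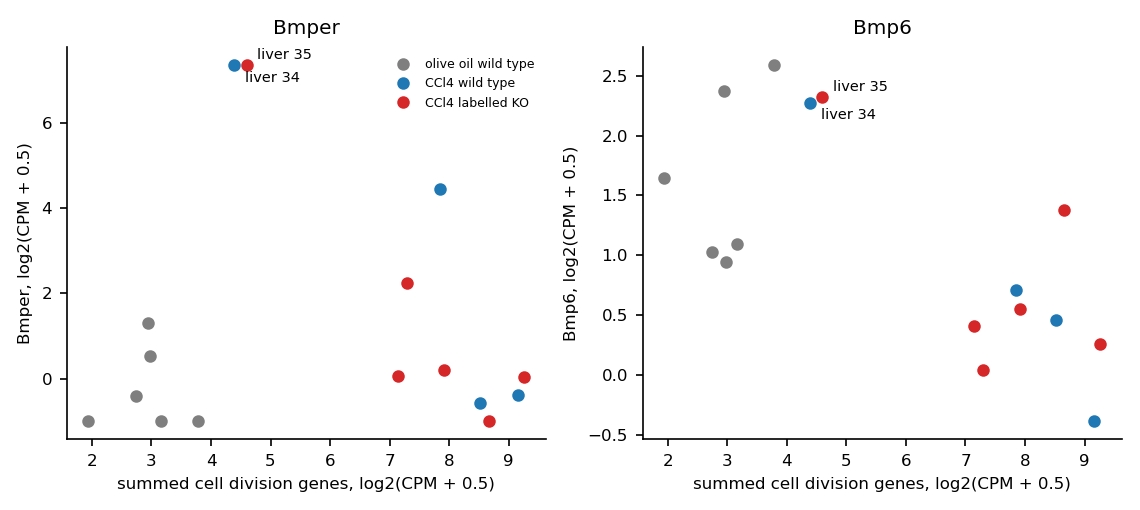
Bmper (left) and Bmp6 (right), both as log2(CPM + 0.5) on the y axis, against the summed level of 6 cell division genes on the same scale (x axis), for olive oil and CCl4 livers. Livers 34 and 35 lie apart from the other 8 CCl4 livers, with more Bmper and Bmp6 and less of the cell division genes.

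Whether other ligands or receptors were changed in the labelled knockout livers was compared within each challenge. None of the 10 members tested on Western diet, the 9 tested after CCl4 or the 8 tested at day 3 of surgery was called by edgeR, and none had an unadjusted p under 0.05. DESeq2 called none either. The filter on low counts left Bmp8b out after CCl4 and at day 3 of surgery, and Bmper at day 3. With no filter, edgeR gave Bmper at day 3 an unadjusted p of 0.009796 (adjusted p = 0.354). The exact permutation test of Bmp8b at day 3 gave p = 0.03968 (adjusted 0.05952). Few genes were called at all: 0.0154% on Western diet, 0.00857% after CCl4 and 0.154% at day 3 of surgery, so the count of 0 among the members is near the background. The intervals of the folds give what these livers could have shown.

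On Western diet the 95% interval of the labelled knockout to wild-type fold was 0.918 to 1.31 for Bmp2, 0.932 to 1.86 for Bmp4, 0.885 to 1.24 for Bmp5 and 0.737 to 1.31 for Bmp6. The upper bounds for these ligands are highest for Bmp4 and lowest for Bmp5. For the receptors it was 0.899 to 1.105 for Bmpr1a, 0.694 to 1.29 for Bmpr2, 0.918 to 1.22 for Acvr1 and 0.525 to 1.055 for Acvrl1, and for Bmper it was 0.443 to 1.18.

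After CCl4 the intervals were 0.642 to 1.96 for Bmp2, 0.546 to 2.03 for Bmp4, 0.475 to 1.27 for Bmp5, 0.361 to 2.85 for Bmp6 and 0.0707 to 5.47 for Bmper. The receptors had 0.829 to 1.425 (Bmpr1a), 0.580 to 2.67 (Bmpr2), 0.786 to 1.44 (Acvr1) and 0.568 to 1.97 (Acvrl1). At day 3 of surgery they were 0.700 to 1.80 for Bmp2, 0.469 to 1.98 for Bmp4, 0.909 to 2.61 for Bmp5 and 0.5525 to 2.27 for Bmp6, and 0.804 to 1.25 (Bmpr1a), 0.639 to 1.09 (Bmpr2), 0.789 to 1.365 (Acvr1) and 0.270 to 1.11 (Acvrl1) for the receptors. Intervals were narrowest in the deeper diet libraries, where the widest ran 0.75 either side on the log2 scale, against 1.04 in surgery and 3.14 after CCl4. The labelled knockout livers at day 3 had Bmp5 at 14.85, 8.25, 5.91 and 5.58 CPM (livers 17 to 20) against 5.38, 4.73, 5.34, 4.97 and 8.09 CPM in wild-type livers. All 4 were above 4 of the 5 wild-type livers, liver 17 was highest, and the log2 fold change of 0.62 missed the threshold (adjusted p = 0.657).

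**Figure D4:**
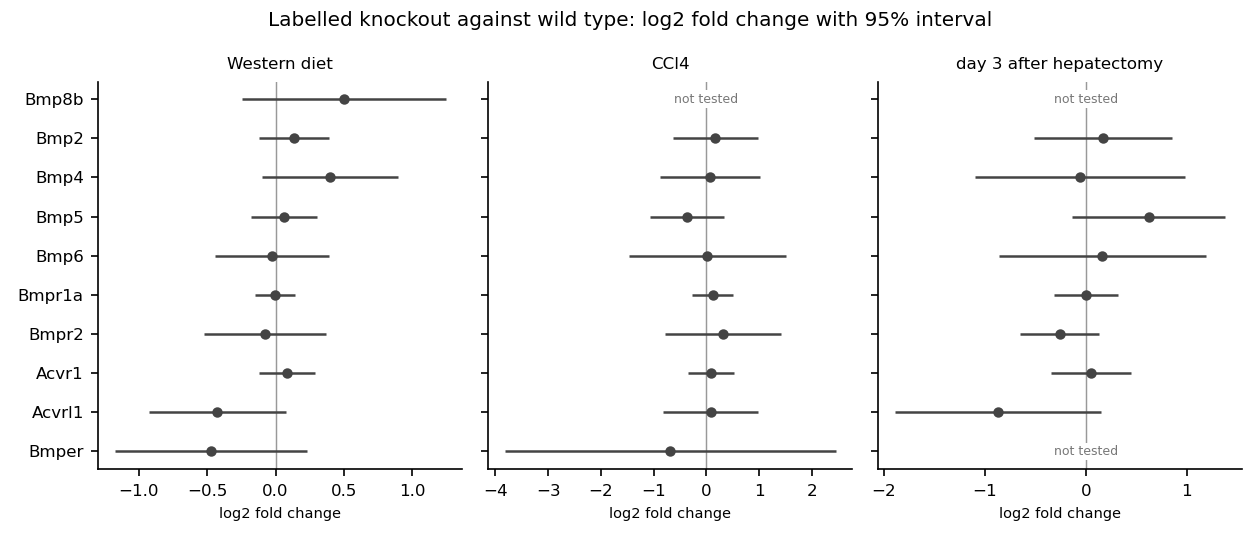
Labelled knockout against wild-type log2 fold change (x axis) with its 95% interval for each tested member (y axis) within Western diet, CCl4 and day 3 of surgery. Every interval includes 0, and the intervals are widest for Bmper after CCl4.

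In the remaining challenge contrasts, 4 of 10 members were called in labelled knockout livers on Western diet against low-fat diet, the same 4 as in wild-type livers (Bmp8b, Bmper, Acvrl1 and Bmp5), where 25.2% of genes were called, 15.1% higher. Both contrasts use the same 9 low-fat livers. None of the 8 members tested was called in wild-type livers at day 3 against day 0, where 17.4% of 11026 genes were, and 1 (Bmpr1a) was under an unadjusted p of 0.05. DESeq2 called 1, Bmper. In labelled knockout livers at day 3 against day 0 none of 8 was called, where 12.2% of genes were, 2 (Bmpr1a and Bmpr2) were under an unadjusted p of 0.05, and DESeq2 called 1, Bmp8b.

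**Figure D5:**
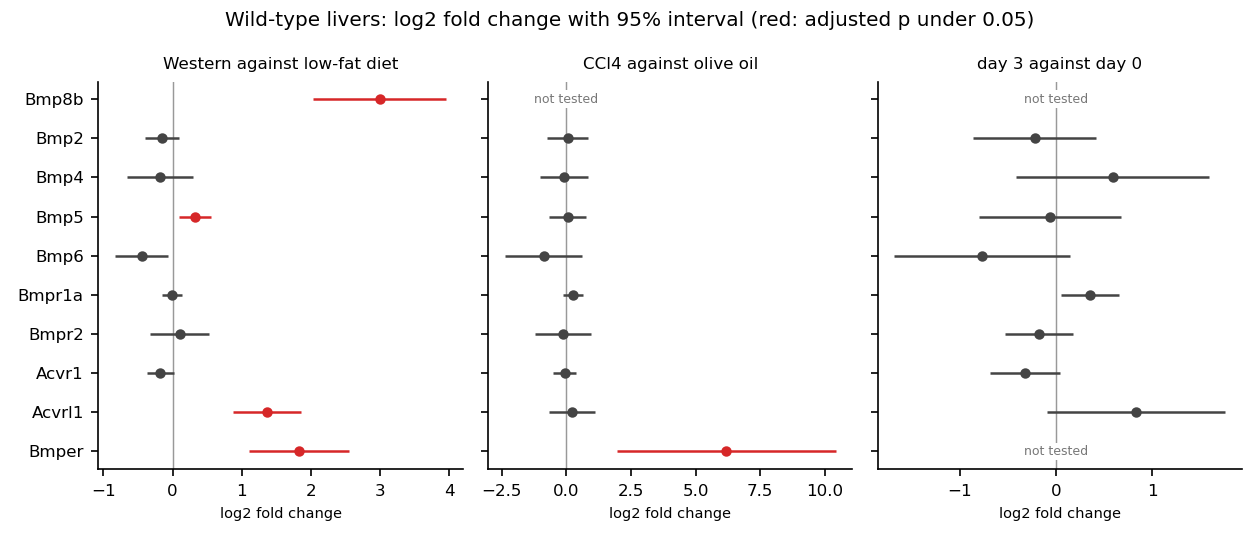
Log2 fold change (x axis) with its 95% interval for each tested member (y axis) in challenged against control wild-type livers. Red marks calls at an adjusted p under 0.05, and members kept out of a fit are marked not tested. On Western diet Bmp8b, Bmper, Acvrl1 and Bmp5 are called, and after CCl4 Bmper alone is called.

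Differences between challenges were tested in 1 fit of all 53 livers. No member passed for the difference of the wild-type responses: the smallest adjusted p was 0.0644 for CCl4 minus diet (Bmper, log2 difference 4.36), 0.249 for surgery minus diet and 0.222 for surgery minus CCl4 (Bmp8b, -3.58, with 0 counts in the olive oil livers, so its size depends on the fit). There 16.1%, 3.53% and 6.09% of 12646 genes were called. Nor did any member pass for the difference of the label effect, with smallest adjusted p of 0.765, 0.9999 and 0.389, the last for Bmp5 (surgery minus CCl4, log2 difference 0.99). In these 0.0%, 0.0158% and 0.0395% of genes were called.

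The other genes of the pathway were described by lists, with values as group means ± SD over the livers of each group. Their counts stand beside shares of all genes called of 37.4% in wild-type and 25.2% in labelled knockout livers on Western diet, 20.0% and 9.3% after CCl4, and 17.4% and 12.2% at day 3 of surgery. Of the 14 BMP ligands, 9 passed the filter on low counts and were tested in the diet experiment, and 4 were called higher in wild-type livers on Western diet. Beside Bmp5 and Bmp8b these were Gdf2, the circulating ligand of Acvrl1, which rose from 17.1 ± 1.98 to 23.25 ± 3.30 CPM (adjusted p = 4.775e-04), and Gdf6, which rose from 0.874 ± 0.396 to 1.59 ± 0.407 CPM (adjusted p = 0.0277). The median log2 fold change of the list was 0.33 against -0.02 over all genes. After CCl4 none of 6 was called in either group. At day 3 of surgery Gdf2 alone of 7 was called, rising from 9.95 ± 2.59 to 22.3 ± 7.59 CPM in wild-type livers (2.27-fold, adjusted p = 0.00153) and to 20.35 ± 2.05 CPM in labelled knockout livers (2.08-fold, adjusted p = 0.00815).

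Of the 7 type I and II receptors, 6 were tested: in wild-type livers on Western diet Acvrl1 rose and Acvr2a, a type II receptor, fell from 24.5 ± 3.30 to 19.9 ± 2.195 CPM (adjusted p = 0.0150). No receptor was called in the toxin or surgery experiments. Of the 7 co-receptors, Rgma rose from 0.262 ± 0.225 to 1.18 ± 0.291 CPM (adjusted p = 6.966e-05) and Tfr2, an iron sensor that binds the hepcidin-inducing complex, fell from 394 ± 29.6 to 301 ± 43.25 CPM (adjusted p = 0.00588) in wild-type livers on Western diet. Hjv, the hemojuvelin co-receptor for hepcidin induction, rose from 104 ± 9.97 to 133 ± 11.2 CPM at day 3 of surgery in wild-type livers (adjusted p = 0.0145), 1 of 5 tested.

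Of the 17 antagonists and modulators, 10 were tested on Western diet in wild-type livers, where 2 rose and 3 fell and 37.4% of all genes were called. Bmper rose, and Fstl1, a follistatin-like secreted protein of mesenchymal cells, rose from 7.11 ± 2.43 to 17.7 ± 6.50 CPM (adjusted p = 2.102e-04). Fst, follistatin, fell from 5.63 ± 2.13 to 3.26 ± 0.909 CPM (adjusted p = 0.00589), and Bmp1, a protease that cleaves Chordin, fell from 117 ± 8.85 to 86.4 ± 7.29 CPM (adjusted p = 2.623e-04). Fstl1 also rose after CCl4, from 5.48 ± 2.82 to 26.2 ± 9.73 CPM in wild-type (adjusted p = 6.949e-04) and to 20.7 ± 5.72 CPM in labelled knockout livers (adjusted p = 0.00208). At day 3 of surgery Fstl1 rose from 5.01 ± 2.12 to 20.2 ± 5.81 CPM (adjusted p = 1.426e-04) and Fst rose from 2.535 ± 1.72 to 13.4 ± 6.06 CPM (adjusted p = 0.00112) in wild-type livers. In labelled knockout livers at day 3 Fstl1 and Fst were also called higher against the shared day 0 livers. Nog, the antagonist noggin, had no count in any of the groups.

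The 8 SMADs and their ubiquitin ligases held few calls. In wild-type livers on Western diet Smad4 fell from 33.6 ± 2.99 to 28.7 ± 1.96 CPM (adjusted p = 0.00884), 1 of 8. In labelled knockout livers on Western diet 1 of 8 was also called lower against low-fat diet. In labelled knockout livers at day 3 of surgery Smad9 fell from 14.4 ± 6.56 to 6.11 ± 0.753 CPM (adjusted p = 0.0167), 1 of 7. The list's median log2 fold change was -0.09 in wild-type livers on Western diet. Of the 7 BMP targets tested on Western diet, the hepcidin genes Hamp and Hamp2 fell, Hamp from 524 ± 133 to 168 ± 91.8 CPM in wild-type (adjusted p = 6.317e-04) and to 229 ± 153 CPM in labelled knockout livers (adjusted p = 0.01195), and Hamp2 from 64.7 ± 41.4 to 17.2 ± 12.0 CPM in wild-type livers (adjusted p = 0.001). These genes are near-identical copies, so the split of reads between them is uncertain. Beside these falls and that of Tfr2, 5 of 8 hepatocyte markers were called lower on Western diet in both genotypes and none higher. Of all 13005 genes tested, 2213 were called lower in wild-type and 1322 in labelled knockout livers. The hepatocyte markers summed to 96819 to 129392 CPM on low-fat diet, 63679 to 96115 in wild-type and 69450 to 99205 CPM in labelled knockout livers. Their part in the Hamp, Hamp2 and Tfr2 values was not tested. At day 3 of surgery Id2 fell from 165.5 ± 27.7 to 80.9 ± 24.4 CPM, Id3 from 64.2 ± 19.1 to 30.3 ± 17.3 CPM and Hamp from 360.3 ± 39.2 to 87.4 ± 37.8 CPM in wild-type livers (adjusted p = 3.526e-04, 0.0275 and 0.00205), 3 of 6 tested. After CCl4 in wild-type livers Id1 rose from 8.01 ± 7.21 to 24.4 ± 10.1 CPM (adjusted p = 0.0384) and Hamp2 fell from 11.2 ± 10.9 to 0.661 ± 0.401 CPM (adjusted p = 0.0153), and in labelled knockout livers none of 6 was called.

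Against wild-type livers of the same challenge, no gene of these 6 lists was called in labelled knockout livers in any of the 3 experiments. Among the named genes, Id2 at day 3 of surgery was 124 ± 28.2 CPM (SD, n = 4) against 80.9 ± 24.4 CPM (n = 5; adjusted p = 0.281 by edgeR), and Acvr2b on Western diet was 0.642 ± 0.213 against 1.34 ± 0.568 CPM (n = 7 each; adjusted p = 0.813 by edgeR).

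Some genes followed the members across the 53 livers, on log2(CPM + 0.5) values centred on each experiment. Likeness is Pearson's r over 53 livers that share groups and experiments, among 13417 genes, and it is a description. Bmp8b was followed most closely by Jpt1 (r = 0.785), Ifi27l2b (r = 0.7765) and Tubb6 (r = 0.763). Tubb6, a tubulin, had group means of 5.05 CPM on low-fat diet, 16.6 in wild-type livers on Western diet, 5.51 after olive oil and 78.3 CPM in wild-type livers after CCl4. Ifi27l2b, an interferon-inducible gene, had 5.14 CPM on low-fat diet and 48.1 CPM in wild-type livers on Western diet. Bmper was followed most closely by Slmapos2 (r = 0.851), Sh3glb1 (r = 0.846) and Nudt4 (r = 0.824). Slmapos2 had group means of 0 to 0.0712 CPM in the surgery groups, where Bmper reached 4.03 CPM in wild-type livers at day 3. How far these r values rest on CCl4 livers 34 and 35, with 164 and 164.7 CPM of Bmper, was not tested. Among the genes that followed Bmp6 most closely were Cirbp (r = 0.6915) and Ptprj (r = 0.683).

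Within 500 kb of Bmp8b the annotation holds 31 genes, 10 of which were tested in the diet and 9 in the other experiments. On Western diet 3 of the 10, Cap1, Ppt1 and Heyl, were called in both genotypes against low-fat diet, near the shares of all genes called there (37.4% in wild-type and 25.2% in labelled knockout livers). Ppt1 was called in labelled knockout livers after CCl4 and at day 3 of surgery, and Heyl in wild-type livers at day 3. None was called between labelled knockout and wild-type livers of the same challenge.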

How the data were processed

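For 53 liver libraries the authors deposited 3 tables of read counts by Ensembl gene, not normalized. Per the submitters' processing notes, TopHat2 2.0.11 placed the reads on GRCm38 and HTSeq counted them; the HTSeq version, the annotation release and the strand setting are not given in the sources used here. The diet and toxin tables list 38293 genes and 53379 are listed for surgery, of which GENCODE vM21 names 36429 and 53274; 36410 genes are in all 3 tables.

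Each experiment was fitted with its 3 groups in 1 model in edgeR 4.0.16 (R 4.3.3; TMM, filterByExpr, quasi-likelihood F-test, two-sided), and calls were made under an adjusted p (Benjamini-Hochberg, over all genes tested) of 0.05; adjusted p values without another name are edgeR's. Differences between experiments came from 1 fit of the genes in all 3 tables. Bmp8b was also compared by exact permutation tests (two-sided) on log2(CPM + 0.5), adjusted over 9 comparisons. Folds against the all-0 olive oil group use 3 counts over that group. The scripts were tested on simulated data. Alternatives used DESeq2 1.42.0, limma 3.58.1, other filters and leaving out libraries. Tables were handled with Python 3.11.15, pandas 2.3.3 and numpy 2.4.6, and figures were drawn with matplotlib 3.10.9.

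The members, lists and tests were chosen with earlier results of these data known. Named are the 10 members and Bmp8a, up to 4 genes with the smallest p of each list and comparison, the 3 genes most like each of Bmp8b, Bmp6 and Bmper, and called genes within 500 kb of Bmp8b. No library was left out. Of the genes this rule names, 2 are not reported here. Sequences are RefSeq's, read from a promoter table of build GRCm38.p6.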

Additional observations from a re-analysis of the deposited data

Results flagged for a closer look

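A liver far from the others of its group was found in 7 of 89 groups tested (each member in each group of 4 to 10 livers), where chance gives about 1 in 20 groups. Bmper gave 3 of them: wild-type CCl4 liver 34 at 164.0 CPM (others 0.1745 to 21.41), labelled knockout CCl4 liver 35 at 164.7 CPM (others 0 to 4.256) and wild-type Western diet liver 5 at 4.889 CPM (others 0.935 to 2.341). Bmp5 gave 2: Western diet wild-type liver 23 at 19.07 CPM (others 10.6 to 13.81) and wild-type day 3 surgery liver 16 at 8.091 CPM (others 4.73 to 5.382). Bmp8b was low in labelled knockout day 3 liver 17, at 1.08 CPM (others 2.363 to 2.624), and Bmp4 was high in olive oil liver 28, at 3.341 CPM (others 1.506 to 2.186).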

How the results depend on the processing

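In wild-type livers on Western diet against low-fat diet and in the 3 comparisons of labelled knockout with wild-type livers, the count of members called stayed within 1.5 times its main value under every alternative run. With only the 2 groups fitted, the filter left Bmp8b out of both Western diet contrasts with low-fat diet, and Acvrl1, Bmp5, Bmper and, in wild-type livers, Bmp6 were called. The other counts moved. For labelled knockout livers on Western diet against low-fat diet, 2 members were called within index D501 and 1 within D502, with fewer livers per group. These 2 alternatives were chosen after seeing the data. For wild-type CCl4 against olive oil, fitting only these groups called 0, no filter with livers 34 and 35 left out called 2 (Bmp8b and Bmper), and leaving out single livers gave 0 to 1, with 0 without any one olive oil liver or without CCl4 liver 34. For labelled knockout CCl4 against olive oil, 1 member was called with no filter, 1 with a filter of 1 CPM, 1 with the i5 index as a covariate, 1 (Bmp8b) with no filter and livers 34 and 35 left out, and 2 by DESeq2. For wild-type day 3 against day 0, no filter, a filter of 1 CPM and DESeq2 each called 1 (Bmper), and leaving out single livers gave 0 to 1. For labelled knockout day 3 against day 0, the same 3 alternatives each called 1 (Bmp8b), and leaving out single livers gave 0 to 1.

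The mean log2 difference of Bmp8b between wild-type day 3 and day 0 was 0.849 to 1.199 with single livers left out, and passed the test without day 0 liver 12 (adjusted p = 0.02857). Between the genotypes at day 3 it was 0.9985 on plain library totals (adjusted p = 0.04762) and 0.820 to 1.195 with single livers left out. For labelled knockout day 3 against day 0 it was 1.837 to 2.167. Leaving out CCl4 livers 34 and 35, with or without the filter, was chosen after seeing the data. The i5 index could not be fitted in surgery. Over 1626 recomputed fold changes of single members, 12 gained and 16 lost a call, and no called member changed sign.

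Mouse numbers 12 to 16 occur at day 0 and day 3, but for 13 and 14 the titles differ by a letter. With group means removed, same-numbered livers correlated at 0.034, -0.012, -0.022, 0.074 and 0.091, and only 15 and 16 matched their own number best, so the numbers were not taken to pair the livers. With the mouse number as a replicate block, 0 members were called, and the paired test of Bmp8b gave 0.9701 (higher for 4 of 5 numbers, adjusted exact p = 0.2109, where 5 pairs cannot go below 0.0625 unadjusted and so cannot pass). Depth limits Bmp8b: toxin and surgery livers hold at most 15 of its counts.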
